A study of Mus musculus with 9 samples.

Results

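The genes described here are 10 genes of the integrated stress response that are regulated with, or encode, the transcription factor ATF4: Atf4, Atf3, Atf5, Ddit3, Trib3, Chac1, Asns, Ddit4, Sesn2 and Gdf15. They were taken by name from a table of normalised read counts, and 10 of 10 names were found among its 11931 genes. The cells were normal mammary fibroblasts from the fat pads of female BALB/c mice aged 12 weeks, left to recover on collagen for 1 week. They were then grown for 5 days with 4T1-GFP cells (3 libraries), for 3 days with 4T1-GFP cells (3 libraries), or alone for 5 days (3 libraries). 4T1 is a mouse mammary carcinoma line of BALB/c origin, here marked with green fluorescent protein (GFP). Fibroblasts were recovered by sorting cells that lacked GFP and carried podoplanin (PDPN), a fibroblast surface glycoprotein, and RNA was read by 3′ end mRNA sequencing. No genotype, drug or other agent distinguished the groups, and nothing in the labels says what separates one replicate from another, so the p-values measure the spread between these libraries, which may be technical. No 3-day monoculture was analysed here. In the comparison of 3-day co-culture with monoculture the effect of carcinoma cells and that of days in culture thus cannot be told apart. Between 5-day and 3-day co-culture, days with carcinoma cells and days in culture differ together and likewise cannot be told apart.

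In the integrated stress response, kinases that sense amino acid shortage, unfolded protein in the endoplasmic reticulum, double-stranded RNA or heme shortage phosphorylate the translation factor eIF2. General translation slows, while the Atf4 mRNA, which carries upstream open reading frames, is translated more. ATF4 protein then binds C/EBP-ATF response elements of genes for amino acid synthesis and transport, for tRNA charging and for further stress regulators. Because ATF4 is controlled largely at translation, the level of its mRNA does not measure the level of the protein.

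After 3 days with carcinoma cells, 8 of the 10 genes were higher than in monoculture: Trib3, Chac1, Gdf15, Atf3, Ddit3, Sesn2, Asns and Atf4, by log2 fold changes between 1.12 for Atf4 and 2.80 for Trib3. Atf5 was lower, and Ddit4 did not pass the test. After 5 days with carcinoma cells 3 genes were higher than in monoculture (Chac1, Trib3 and Atf4) and 3 were lower (Atf5, Gdf15 and Ddit4). Set directly against 3 days, 8 genes were lower at 5 days and 0 higher by limma, and Ddit4 and Sesn2 did not pass the test. The count of 0 was the same at an unadjusted p under 0.05, in edgeR and in DESeq2. These calls used limma on log2(value + 1) over all 10639 tested genes, with a Benjamini-Hochberg adjusted p under 0.05, and all 10 genes were tested, each averaging at least 5 in every group. In the table as a whole, 10.6% of tested genes were called higher and 9.37% lower in 3-day co-culture against monoculture. In 5-day co-culture against monoculture 12.6% were called higher and 11.4% lower, and between the co-cultures 3.2% were higher and 3.71% lower at 5 days. The median log2 fold change of the 10 genes was 1.71 in 3-day co-culture against monoculture, 0.47 in 5-day co-culture against monoculture and -1.29 between 5 and 3 days of co-culture. Over all tested genes those medians were 0.0014, -0.0078 and -0.0052. Both comparisons with monoculture use the same 3 monoculture libraries. In these bulk samples fewer cells that express a gene and less RNA per cell cannot be told apart.

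**Figure D1:**
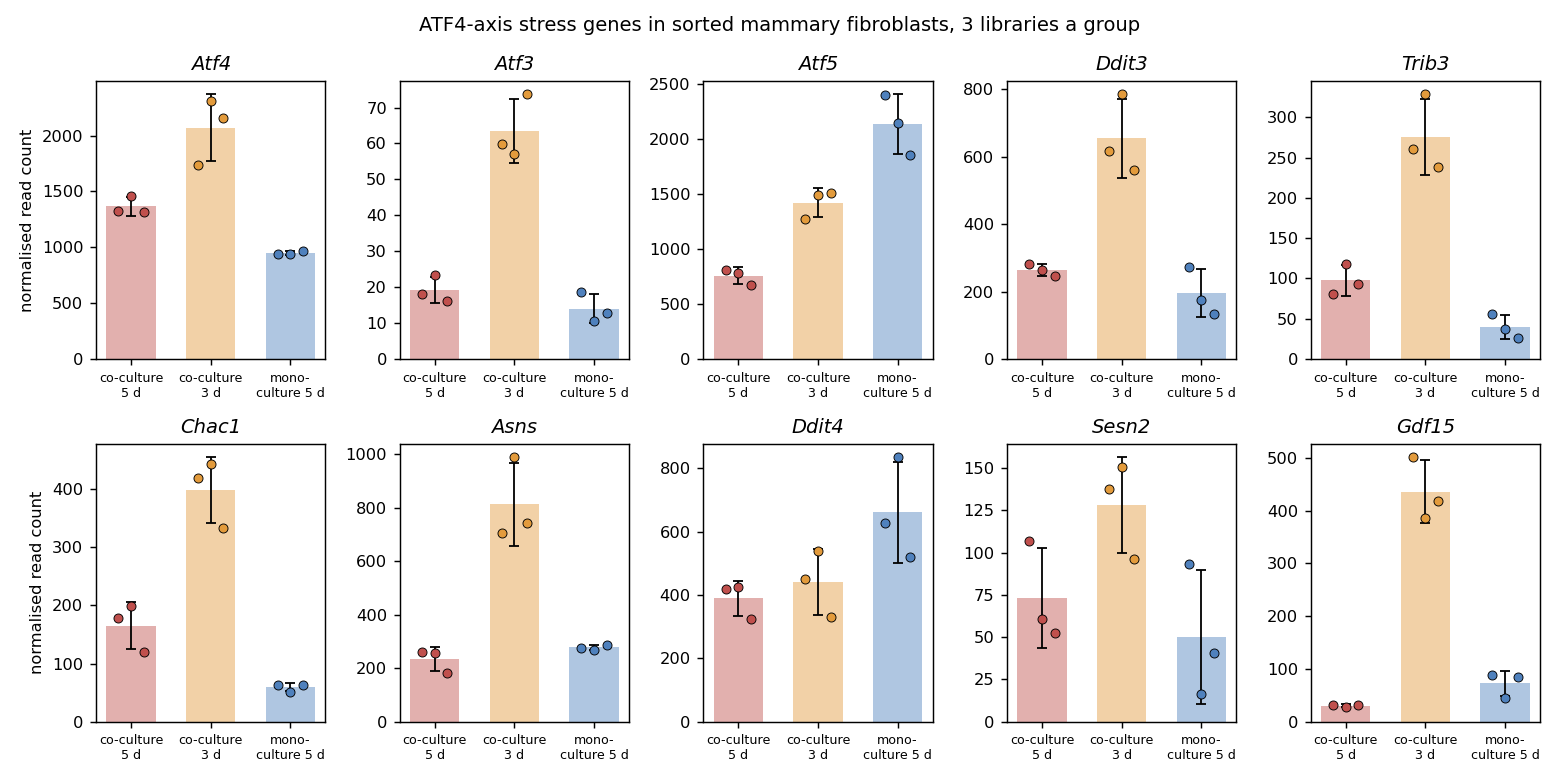
Normalised read count (vertical axis, linear from 0, own scale for each gene) of the 10 genes in 5-day co-culture, 3-day co-culture and 5-day monoculture; points are libraries, bars are group means and error bars are SD (n = 3). For Atf4, Atf3, Ddit3, Trib3, Chac1, Asns and Gdf15 every 3-day library lies above every library of the other groups, while Atf5 steps downward from monoculture through 3 days to 5 days of co-culture.

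The promoters of Chac1, Atf3 and Asns are shown because their genes rose at 3 days and because they hold the core of the C/EBP-ATF response element within the 250 bases before the RefSeq transcription start (GRCm38.p6, the assembly of mm10). Each is written 5′ to 3′ on the strand of the gene, with the match in capitals.

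Chac1, chr2:119350992-119351241, plus strand: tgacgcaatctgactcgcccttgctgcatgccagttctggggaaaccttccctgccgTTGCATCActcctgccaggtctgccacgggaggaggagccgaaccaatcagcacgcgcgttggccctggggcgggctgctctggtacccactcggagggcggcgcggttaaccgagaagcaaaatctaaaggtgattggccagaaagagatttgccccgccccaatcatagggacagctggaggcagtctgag

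Atf3, chr1:191183334-191183583, minus strand: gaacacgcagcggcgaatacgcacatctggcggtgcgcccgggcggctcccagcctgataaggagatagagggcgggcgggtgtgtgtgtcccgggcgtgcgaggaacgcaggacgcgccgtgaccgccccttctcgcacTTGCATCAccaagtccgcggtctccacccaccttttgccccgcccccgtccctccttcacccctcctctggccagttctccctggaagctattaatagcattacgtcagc

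Asns, chr6:7693210-7693459, minus strand: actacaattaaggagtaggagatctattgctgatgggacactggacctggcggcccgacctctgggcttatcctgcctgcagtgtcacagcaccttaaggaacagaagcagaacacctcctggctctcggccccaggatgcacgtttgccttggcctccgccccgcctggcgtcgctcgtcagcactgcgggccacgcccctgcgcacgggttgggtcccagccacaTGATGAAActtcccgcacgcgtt

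The core was searched as TGATGNAA on both strands, so that it also reads TTNCATCA. Chac1 and Atf3 carry the same 8 letters, beginning at positions -193 and -110 from the start, and the Asns match begins at -23. Of the 12 windows of the 10 genes (Atf5 and Gdf15 have 2 each), 3 held a match, against 3.45% of the 32851 windows in the promoter table. The cAMP response element TGACGTCA was in 0 of the 12 windows and in 1.55% of all windows. CCAAT, also searched on both strands, was in 7 of the 12 windows, each of a different gene, and in 33.8% of all windows. None of the matches overlapped another. A match is a description of the letters only, and the windows without one may hold the element elsewhere. By the gene positions given below, Chac1, Atf3 and Asns start further upstream than the RefSeq starts used here. The Atf3 window thus lies inside the gene, and the Chac1 and Asns windows overlap their genes. Windows before those other starts were not searched.

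**Figure D2:**
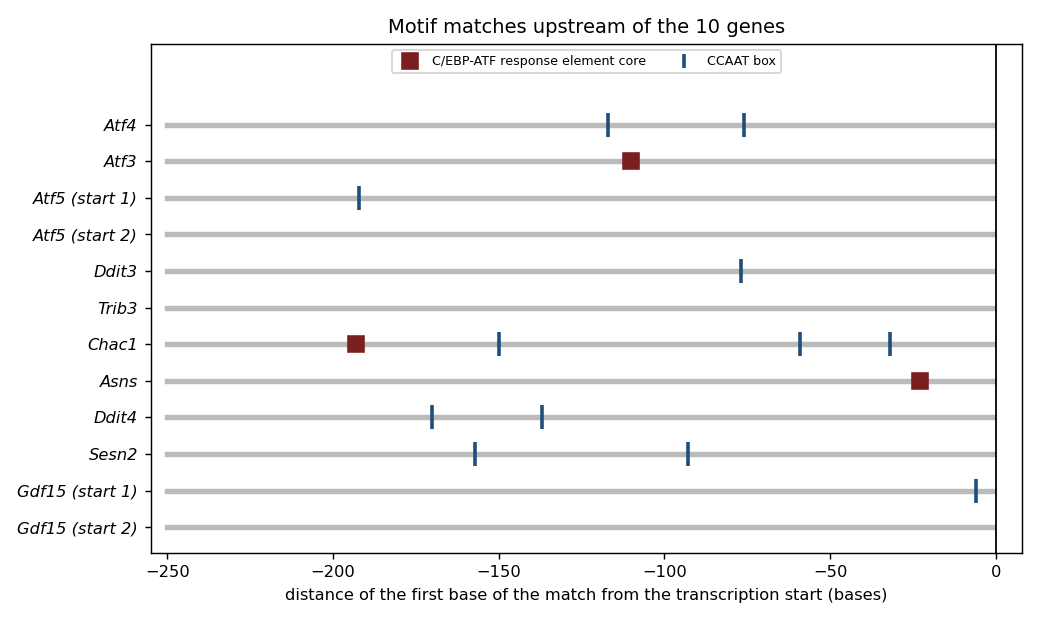
Positions of C/EBP-ATF response element cores (squares) and CCAAT boxes (ticks) in the 250 bases upstream of each RefSeq start of the 10 genes; the horizontal axis gives the distance of the first base of the match from the start, in bases, and starts of one gene are numbered by increasing genome position. Squares are present for Atf3, Chac1 and Asns, and Chac1 also has 3 CCAAT boxes.

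Atf4 encodes the factor that gives the response its name (chromosome 15, 80255184 to 80257541, plus strand, mm10, a protein-coding gene). Its normalised counts were 1321.7, 1463.2 and 1317.1 at 5 days of co-culture, 1733.7, 2312.5 and 2160.7 at 3 days, and 936.4, 940.7 and 964.7 in monoculture. The 3 groups did not overlap, with 3-day co-culture on top and monoculture at the bottom. Atf4 rose in 3-day co-culture against monoculture by 1.12 ± 0.17 on the log2 scale (SE, adjusted p = 0.00017). In 5-day co-culture against monoculture it rose by 0.53 ± 0.17 (adjusted p = 0.029), and it was lower at 5 than at 3 days of co-culture, at -0.59 ± 0.17 (adjusted p = 0.043). Both of these smaller differences sat near the threshold. The first was no longer called without 5-day replicate 1 (0.55, adjusted p = 0.0574) or 2 (0.48, 0.102), or without monoculture replicate 1 (0.52, 0.0777), 2 (0.52, 0.0771) or 3 (0.54, 0.071), in a range of adjusted p from 0.0102 to 0.102 over all alternatives. Of the fits that left a library out, the second was called only without 3-day replicate 1. Its values were -0.56, -0.64 and -0.56 without 5-day replicates 1, 2 and 3 (adjusted p = 0.12, 0.0761 and 0.0988), -0.50 and -0.55 without 3-day replicates 2 and 3 (0.169 and 0.0873), and -0.59 without any one monoculture (0.0531, 0.0559 and 0.0628). It also missed the threshold when only the compared groups were fitted (adjusted p = 0.075), and its adjusted p ranged from 0.00809 to 0.169.

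Atf3 encodes a stress-induced bZIP factor that often acts as a repressor (chromosome 1, 191170296 to 191218039, minus strand). It had 18.0, 23.3 and 16.2 normalised counts at 5 days of co-culture, 59.8, 57.1 and 73.7 at 3 days, and 18.6, 10.6 and 12.9 in monoculture. All 3-day libraries lay above all others, and the 5-day libraries overlapped with monoculture. The rise at 3 days against monoculture was 2.13 ± 0.28 on the log2 scale (adjusted p = 6.5e-05), and Atf3 was lower at 5 than at 3 days (-1.68 ± 0.28, adjusted p = 0.0021). Between 5-day co-culture and monoculture the difference was 0.44 (95% interval -0.16 to 1.04, adjusted p = 0.29). Atf3 rested on few reads, 58 in all at 5 days, 171 at 3 days and 72 in monoculture.

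Ddit3 encodes CHOP, a C/EBP-family factor of prolonged stress (chromosome 10, 127290774 to 127296288, plus strand). Its normalised counts were 282.1, 265.4 and 247.2 at 5 days of co-culture, 617.7, 785.2 and 559.3 at 3 days, and 272.9, 176.4 and 134.3 in monoculture. Here again the 3-day libraries stood above the rest, and monoculture replicate 1 lay among the 5-day libraries. Ddit3 rose in 3-day co-culture by 1.79 ± 0.23 (adjusted p = 4.1e-05) and was lower at 5 than at 3 days (-1.29 ± 0.23, adjusted p = 0.0030). In 5-day co-culture against monoculture the difference of 0.50 (95% interval 0.02 to 0.98) had an adjusted p of 0.12, and without monoculture replicate 1 it was 0.78 and passed (adjusted p = 0.0152, in a range of 0.0152 to 0.475 over the alternatives). The strand setting of the counting is not stated, and 68 of the 1713 exonic bases of Ddit3 are shared with exons of Mars, a tRNA synthetase gene on the other strand. Mars also rose at 3 days, with means of 440.2 ± 18.9 in co-culture and 226.1 ± 35.5 in monoculture (log2 fold change 0.97).

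Atf5 was the 1 factor of the 4 that fell at both times. It encodes a bZIP factor whose translation, like that of ATF4, is held back by upstream open reading frames (chromosome 7, 44812256 to 44816658, minus strand). Normalised counts were 811.3, 785.2 and 669.2 at 5 days of co-culture, 1267.0, 1486.2 and 1505.4 at 3 days, and 2395.2, 2146.2 and 1852.3 in monoculture. The groups did not overlap, and the order ran from monoculture at the top to 5-day co-culture at the bottom. Atf5 fell in 5-day co-culture against monoculture (-1.49 ± 0.17, adjusted p = 9.0e-06) and in 5-day against 3-day co-culture (-0.91 ± 0.17, adjusted p = 0.0045). At 3 days against monoculture it was lower by a smaller amount (-0.58 ± 0.17, adjusted p = 0.024). That call was lost without 3-day replicate 1 (-0.50, adjusted p = 0.0666) or 2 (-0.62, 0.051), or without monoculture replicate 1 (-0.49, 0.0988) or 2 (-0.57, 0.0689), within a range of 0.00453 to 0.0988. Exons of Nup62, a nuclear pore gene on the other strand, share 82 of the 1993 exonic bases of Atf5, and Nup62 rose at both times, at 5 days with means of 166.2 ± 11.6 in 5-day co-culture and 111.4 ± 16.8 in monoculture.

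**Figure D3:**
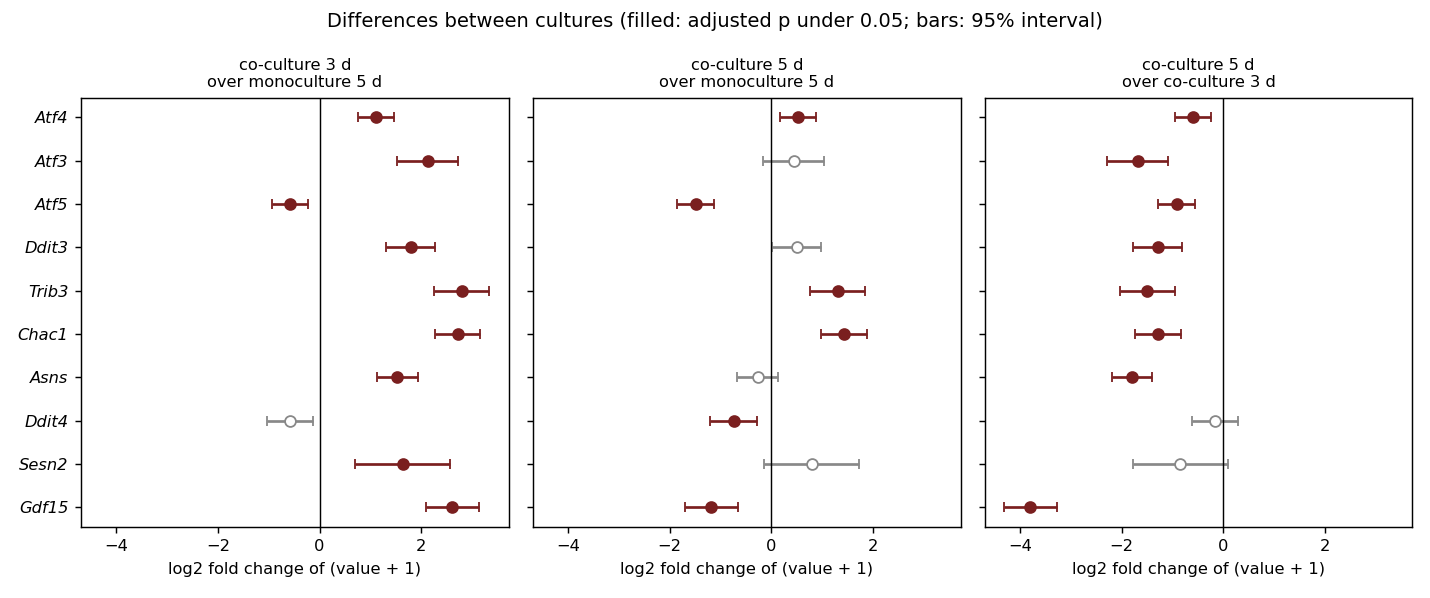
Log2 fold change of (value + 1) for each gene in the 3 comparisons, with its 95% interval; filled points passed an adjusted p of 0.05 over all tested genes and open points did not. The left panel has 8 filled points above 0 and the right panel has 8 filled points below 0, with Gdf15 farthest out at -3.80.

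Trib3 encodes a pseudokinase that is induced by ATF4 and CHOP and restrains both AKT and ATF4 itself (chromosome 2, 152337422 to 152344032, minus strand). It had 80.9, 118.3 and 93.6 normalised counts at 5 days of co-culture, 260.7, 328.6 and 237.9 at 3 days, and 56.3, 37.5 and 26.4 in monoculture. No group overlapped another, and 5 days lay between the other groups. Trib3 rose in 3-day co-culture by 2.80 ± 0.26 (adjusted p = 1.5e-06), a ratio of means of 6.88, and in 5-day co-culture by 1.31 ± 0.26 (adjusted p = 0.0014). The 5-day level was below the 3-day level by a log2 difference of -1.49 (adjusted p = 0.0024).

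Chac1 encodes an enzyme that degrades glutathione (chromosome 2, 119351229 to 119354381, plus strand). It had 177.9, 198.4 and 119.8 normalised counts at 5 days of co-culture, 418.5, 442.7 and 333.9 at 3 days, and 63.7, 51.4 and 63.6 in monoculture. The groups were again separate and in the same order as for Trib3. The rise was 2.72 ± 0.21 at 3 days (adjusted p = 3.0e-07) and 1.43 ± 0.21 at 5 days (adjusted p = 0.00012), and 5 days lay below 3 days (-1.28 ± 0.21, adjusted p = 0.0019). Chac1 and Trib3 passed in the same directions under each alternative and with each library left out.

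Asns encodes asparagine synthetase, a classical amino acid response gene (chromosome 6, 7675169 to 7693254, minus strand). It had 259.7, 258.9 and 183.5 normalised counts at 5 days of co-culture, 705.8, 990.6 and 742.9 at 3 days, and 276.7, 268.7 and 288.6 in monoculture. At 3 days every library was above every other. At 5 days all 3 libraries were below all 3 monocultures, a difference that did not pass (-0.27, 95% interval -0.67 to 0.14, adjusted p = 0.35). The rise at 3 days was 1.53 ± 0.19 (adjusted p = 3.3e-05), and the 5-day level was lower than the 3-day level by 3.47-fold (-1.79 ± 0.19, adjusted p = 8.0e-05).

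Ddit4 and Sesn2 encode REDD1 and sestrin 2, which restrain the growth kinase complex mTORC1. Ddit4 (chromosome 10, 59949669 to 59951834, minus strand) had 417.8, 425.6 and 324.6 normalised counts at 5 days of co-culture, 450.0, 539.5 and 331.1 at 3 days, and 625.7, 835.4 and 520.6 in monoculture. Both co-culture groups overlapped each other, and only the 5-day group lay wholly below monoculture. Ddit4 fell at 5 days against monoculture (-0.74 ± 0.22, adjusted p = 0.020), a call lost without 5-day replicate 3 (-0.62, adjusted p = 0.0855) or monoculture replicate 2 (-0.56, adjusted p = 0.101) in a range of 0.00388 to 0.101. At 3 days the difference was -0.59 ± 0.22 (adjusted p = 0.069). This one passed without 3-day replicate 2 (-0.75, adjusted p = 0.0476), without monoculture replicate 3 (-0.74, adjusted p = 0.0463) and with the replicate number as a block (adjusted p = 0.0203), in a range of 0.0203 to 0.267. Between 5 and 3 days it differed by -0.16 (95% interval -0.62 to 0.30, adjusted p = 0.72).

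Sesn2 (chromosome 4, 132492032 to 132510501, minus strand) had the widest spread of the members in 5-day co-culture and in monoculture. Its normalised counts were 106.9, 60.5 and 52.4 at 5 days of co-culture, 137.8, 150.4 and 96.0 at 3 days, and 93.5, 16.3 and 40.5 in monoculture. The lowest 3-day library, at 96.0, was barely above the highest monoculture library, at 93.5. Sesn2 rose at 3 days by 1.64 ± 0.44 (adjusted p = 0.015), but not without 3-day replicate 2 (1.51, adjusted p = 0.0657), without monoculture replicate 2 (1.02, adjusted p = 0.0637) or in DESeq2 on recovered reads (1.34, adjusted p = 0.122), in a range of 0.000346 to 0.122. Without monoculture replicate 1 the rise was 2.24 (adjusted p = 0.000346). At 5 days against monoculture the difference was 0.80 (95% interval -0.14 to 1.73, adjusted p = 0.22). It was 1.40 and passed without monoculture replicate 1 (adjusted p = 0.011), and it was 0.18 without monoculture replicate 2 (adjusted p = 0.784), these being the ends of the range over the alternatives. Between 5 and 3 days Sesn2 differed by -0.84 (95% interval -1.78 to 0.09, adjusted p = 0.28).

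Gdf15 encodes a secreted stress cytokine of the TGF-beta superfamily, which acts on the brainstem receptor GFRAL (chromosome 8, 70629393 to 70632456, minus strand). Normalised counts were 31.4, 27.0 and 32.5 at 5 days of co-culture, 501.5, 385.7 and 418.8 at 3 days, and 89.1, 45.2 and 84.2 in monoculture. The groups were separate, and 5-day co-culture, not monoculture, was the lowest. Gdf15 rose at 3 days against monoculture by 2.62 ± 0.24 (adjusted p = 1.9e-06) and fell at 5 days against monoculture (-1.18 ± 0.24, adjusted p = 0.0022). At 5 days the mean was 14.4-fold lower than at 3 days, with 30.3 ± 2.9 at 5 days and 435.3 ± 59.6 at 3 days (SD, n = 3). The log2 difference of -3.80 ± 0.24 (adjusted p = 5.0e-07) ranked 2 by absolute size among the 10639 tested genes in that comparison. The 5-day value rested on 35, 29 and 26 reads and the 3-day value on 302, 554 and 301 reads. Gdf15 was the member whose differences from monoculture passed in opposite directions at the 2 times.

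A two-sided exact permutation test on each gene, with 3 libraries a side, gave p = 0.1, the smallest it can give, for each gene and comparison in which the groups did not overlap, and between 0.2 and 0.4 for the others. Groups did not overlap for 8 genes that were higher and 1 that was lower at 3 days against monoculture, for 3 and 4 at 5 days against monoculture, and for 0 and 8 at 5 against 3 days of co-culture. Over all tested genes the shares were 19.2% and 18.1%, 20.8% and 20.1%, and 11.7% and 12.9%. The count test of edgeR on recovered reads called the same members in the same directions as limma in all 3 comparisons. Over all genes edgeR called 1157 higher and 1082 lower at 3 days, 1387 and 1349 at 5 days against monoculture, and 311 and 366 between the days, where limma called 1132 and 997, 1340 and 1212, and 340 and 395.

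Spread within groups also differed between members. In monoculture the coefficient of variation was 1.61% for Atf4 and 3.60% for Asns, but 78.8% for Sesn2. Monoculture replicate 1 had the highest level in its group for Atf3, Atf5, Ddit3, Trib3, Chac1, Sesn2 and Gdf15. At 3 days the coefficient lay between 9.33% for Atf5 and 23.7% for Ddit4. Co-culture replicate 2 was the highest 3-day library for Atf4, Ddit3, Trib3, Chac1, Asns, Ddit4 and Sesn2. Across the 9 libraries the log2 levels of Atf4 had Pearson correlations of 0.96 with Chac1, 0.95 with Trib3 and 0.80 with Asns, but -0.32 with Atf5. These are descriptions over libraries that fall into 3 groups and share a common scaling.

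Other genes of the pathway were counted by list. Of 44 tested further targets of ATF4 or of the amino acid response, 26 were higher and 2 lower at 3 days against monoculture, with a median log2 fold change of 0.84. At 5 days against monoculture 6 were higher and 6 lower (median 0.09), and between 5 and 3 days 0 were higher and 22 lower (median -0.81); the 0 held at an unadjusted p under 0.05 in limma, edgeR and DESeq2. Fgf21, a stress hormone gene, had means of 30.1 ± 4.2 at 5 days, 176.1 ± 51.9 at 3 days and 11.4 ± 1.8 in monoculture. Cth, which encodes the cysteine-forming enzyme cystathionine gamma-lyase, averaged 69.2 ± 6.5 at 5 days, 223.9 ± 28.8 at 3 days and 23.2 ± 3.0 in monoculture. Both genes rose at each time against monoculture, and both had their highest mean at 3 days. Nupr1, a stress-induced chromatin protein gene, averaged 926.0 ± 83.8 at 5 days, 2456 ± 144.5 at 3 days and 620.7 ± 91.7 in monoculture. Aldh1l2, a mitochondrial folate enzyme gene, averaged 57.1 ± 10.2, 211.2 ± 52.4 and 60.4 ± 1.6 in the same order, and its difference at 5 days against monoculture did not pass (adjusted p = 0.80). The glycine transporter gene Slc6a9 was lower at 5 than at 3 days (46.8 ± 3.9 and 214.1 ± 67.1). The 2 targets lower at 3 days against monoculture were Slc38a2, an amino acid transporter gene, and Map1lc3b, an autophagy gene, both named after their values were seen, with log2 fold changes of -1.08 ± 0.19 and -1.58 ± 0.21. Slc38a2 was also lower at 5 days (188.7 ± 19.3 in co-culture and 634.7 ± 153.8 in monoculture), as was the glutamine transporter gene Slc1a5 (74.9 ± 6.3 and 177.6 ± 10.0), while the glycyl-tRNA synthetase gene Gars rose (1323 ± 347.2 and 505.4 ± 52.0). Of the 44 targets 2 averaged under 5 in monoculture and so needed co-culture libraries to be tested. Without 3-day replicate 2 the 22 lower targets between the days were 14, and without monoculture replicate 2 the 6 higher ones at 5 days were 3.

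Upstream of ATF4 stand eIF2, the kinases and phosphatase that act on it, and eIF2B. Of 15 tested genes for eIF2 kinases, eIF2 and eIF2B subunits and the eIF2 phosphatase, 2 were higher and 0 lower at 3 days against monoculture (median 0.07), beside 10.6% of all genes called higher, and 3 were higher and 0 lower at 5 days (median -0.04), beside 12.6%. At an unadjusted p under 0.05 limma had 1 lower at 3 days and 3 at 5 days, and edgeR called 1 and 0 lower. Those higher at 3 days were the eIF2B subunit genes Eif2b2 (236.8 ± 20.1 in co-culture and 109.2 ± 16.9 in monoculture) and Eif2b3 (log2 fold change 1.01 ± 0.19). At 5 days both rose again, Eif2b3 with 105.6 ± 7.2 in co-culture and 46.6 ± 3.1 in monoculture, as did Eif2ak2, the interferon-inducible kinase PKR, with 131.1 ± 29.5 in co-culture and 63.1 ± 3.3 in monoculture. Between the days 1 was lower, Ppp1r15a, which encodes the stress-induced phosphatase subunit GADD34 (157.4 ± 39.9 at 5 days and 382.4 ± 168.5 at 3 days, adjusted p = 0.017). Its call was lost without 5-day replicate 2 (adjusted p = 0.0821) and without 3-day replicate 1 (0.0718) or 2 (0.0772). Ppp1r15a is also in the list of targets and is counted there among those lower between the days.

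Genes of bZIP partners and cofactors were called in both directions. Of 11 tested partner genes 4 were higher and 2 lower at 3 days against monoculture (median -0.38), 2 higher and 6 lower at 5 days (median -1.33), and 0 higher and 6 lower between the days (median -0.85). The 0 held at an unadjusted p under 0.05 in limma, edgeR and DESeq2, and Nupr1 is in this list and in that of targets. Cebpb, a main partner of ATF4, fell to 308.8 ± 46.2 at 5 days, against 942.4 ± 105.8 in monoculture, and averaged 665.8 ± 167.0 at 3 days, which did not pass against monoculture (adjusted p = 0.080). Jun rose at 3 days (425.6 ± 83.2 and 197.8 ± 48.9 in monoculture), whereas Fos fell (257.8 ± 91.8 and 1241 ± 146.2). Without monoculture replicate 2 the 2 higher partners at 5 days were 0, with 1 in the fits that left out any 5-day library or another monoculture, and the 6 lower ones between the days were 2 without 3-day replicate 2 and 3 without 5-day replicate 1 or 2.

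The other arms of the unfolded protein response, run by XBP1 and ATF6, have their own chaperone and degradation targets. Of 20 tested genes 3 were higher and 1 lower at 3 days against monoculture (median -0.09), 4 higher and 0 lower at 5 days (median 0.31), and 3 higher and 0 lower between the days (median 0.28). At an unadjusted p under 0.05 limma had 2 lower at 5 days against monoculture and 0 between the days, and edgeR called 1 and 0. Derl3, among the genes higher at both times, averaged 3.0 in monoculture, 19.3 at 3 days and 12.0 at 5 days. It thus needed co-culture libraries to be tested. Dnajc3, a co-chaperone gene, was lower at 3 days (43.5 ± 8.8 in co-culture and 119.8 ± 4.7 in monoculture) and higher at 5 than at 3 days (86.6 ± 8.3 at 5 days), the second call being lost without 3-day replicate 2 (0.83, adjusted p = 0.0549). Hspa5, which encodes the chaperone BiP, had means of 1590 ± 525.4 at 5 days, 1511 ± 545.8 at 3 days and 818.4 ± 270.2 in monoculture. Its call at 3 days was lost without 3-day replicate 3 (adjusted p = 0.152), monoculture replicate 1 (0.0871) or 3 (0.145), and its call at 5 days without 5-day replicate 2 (0.107), monoculture replicate 1 (0.0526) or 3 (0.0891). Without 3-day replicate 3 or monoculture replicate 3 the 3 higher genes at 3 days were 1. The 4 at 5 days were 1 without 5-day replicate 2 or monoculture replicate 3. The 3 between the days were 1 in each fit that left out a 5-day library or 3-day replicate 2.

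Since p53 is also a known regulator of Atf3, Sesn2, Gdf15 and Ddit4, a list of its targets was read beside them. Of 15 tested genes 5 were higher and 1 lower at 3 days against monoculture (median 0.36), 7 higher and 1 lower at 5 days (median 0.52), and 1 higher and 2 lower between the days (median -0.07). Gadd45a, a growth arrest gene, was called in all 3 comparisons, with 347.3 ± 71.8 at 5 days, 1038 ± 46.2 at 3 days and 163.1 ± 26.1 in monoculture. Cdkn1a, which encodes the cell-cycle inhibitor p21, was called higher at both times against monoculture. Its means were 2409 ± 464.8 at 5 days, 2892 ± 394.8 at 3 days and 1522 ± 130.6 in monoculture. Ccng1 rose at 5 days (905.1 ± 134.1 in co-culture and 445.9 ± 37.8 in monoculture) and did not pass at 3 days against monoculture (adjusted p = 0.19). The 1 lower at each time against monoculture was Btg2 (71.3 ± 11.9 at 5 days, 149.3 ± 78.1 at 3 days and 321.7 ± 37.1 in monoculture). Perp and Plk2 were also higher at both times against monoculture, Eda2r at 3 days only, and Zmat3 and Bbc3 at 5 days only. Mdm2, Bax, Phlda3, Fas and Sesn1 were called in no comparison. The 1 higher between the days, Ccng1, was lost in 10 alternatives, and the 7 higher at 5 days were 4 without monoculture replicate 2 or 3. These lists are descriptive counts beside the shares of all genes given above, and the difference between lists was not tested.

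**Figure D4:**
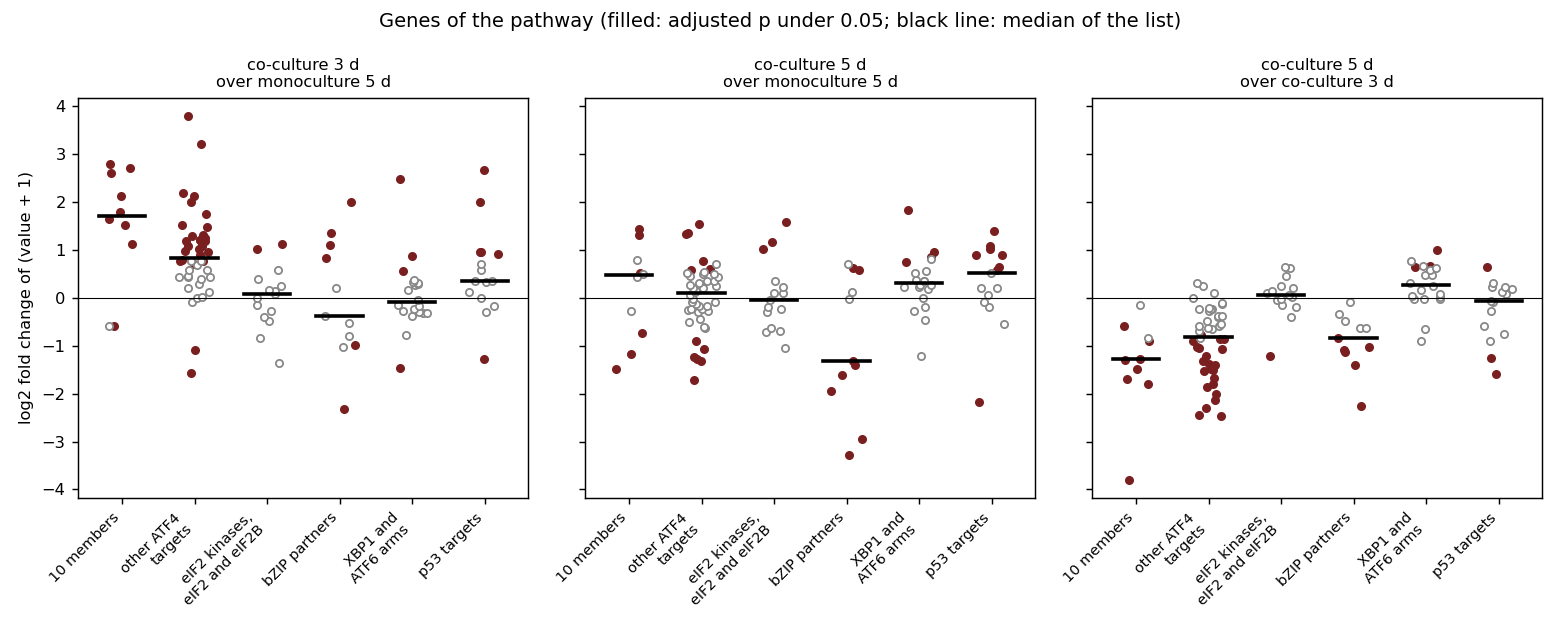
Log2 fold change of (value + 1) of every tested gene of 6 lists in the 3 comparisons; filled points passed an adjusted p of 0.05, open points did not, and the black line is the median of the list. The members and the other ATF4 targets have medians of 1.71 and 0.84 at 3 days against monoculture and of -1.29 and -0.81 between 5 and 3 days, while the medians of the list of eIF2 kinases and subunits lie between -0.04 and 0.07.

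The libraries held between 1048471 and 3567326 reads assigned to genes, and each of the 3 monocultures was deeper than each of the 6 co-culture libraries. All 12 listed fibroblast markers were present, and their summed level was 39564 to 53754 at 5 days, 44399 to 55637 at 3 days and 46227 to 63829 in monoculture. Of the 12, 1 was higher and 6 lower at 5 days against monoculture and 5 lower at 3 days. Between 5 and 3 days 1 was higher, Vim, and 3 were lower, Pdgfra, Thy1 and Dcn. Of all genes 12.6% were higher and 11.4% lower at 5 days, and 9.37% lower at 3 days. Between the days 3.2% of all genes were higher and 3.71% lower. Col1a1 and Col1a2, which had the highest means, were called in no comparison. The 1 higher at 5 days was Vim (11040.6 ± 2008.3 in co-culture and 5218.5 ± 326.4 in monoculture). Pdgfra, a receptor gene of fibroblasts with the largest fall at 5 days, averaged 21.0 ± 2.6 at 5 days, 51.7 ± 8.3 at 3 days and 189.3 ± 55.8 in monoculture. Markers of epithelial or carcinoma cells were higher in co-culture: 14 of 15 tested rose at each time, and the summed level of the 16 in the table was 1118 to 1565 at 5 days, 1136 to 1305 at 3 days and 57.3 to 84.0 in monoculture. Of those 15 markers 11 averaged under 5 in monoculture, so the filter on genes favoured their rise, and Cldn3 and Elf3 were at 0 there. Between 5 and 3 days 1 of the 15 passed, Lcn2, which was lower, beside 3.71% of all tested genes called lower. The part of depth, of the lower fibroblast markers and of carcinoma cells or their RNA in the differences was not tested. Of 8 listed immune markers only 3 were in the table, Lyz2, Cd68 and Csf1r. Their sum was 52.4 to 126.7 at 5 days, 107.9 to 287.5 at 3 days and 70.1 to 230.3 in monoculture. Csf1r was called lower at 5 days against monoculture (-1.355, adjusted p = 0.012) and against 3 days (-1.476, adjusted p = 0.0215). Its means were 6.4 at 5 days, 19.1 at 3 days and 17.1 in monoculture. Lyz2 and Cd68 were called in no comparison. Sums of the 4 pericyte markers were 165.8 to 217.5, 133.7 to 177.7 and 45.2 to 87.3 in the same order. Of those tested, Cspg4 was called higher at both times against monoculture, with means of 108.8, 77.9 and 10.2. Notch3 and Mcam were called in no comparison. Kdr was the 1 endothelial marker in the table, at 0.0 to 6.5, 3.3 to 11.8 and 2.9 to 9.9. Of the adipocyte markers only Fabp4 was in the table, at 9.0 to 16.2, 5.0 to 22.3 and 93.5 to 145.2. The basal markers Sfn and Krt14 averaged 33.5 and 11.6 at 5 days, 30.9 and 26.0 at 3 days, and 2.90 and 1.77 in monoculture.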

How the data were processed

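Reads of 3′ end mRNA libraries from 9 sorted fibroblast samples were, per the submitters' processing notes, handled with bcl2fastq, STAR 2.4.2a and HTSeq on the mm10 genome; annotation, strand setting and gene filter are not given in the sources used here. The values deposited by the authors are normalised read counts (a scaled signal, not raw counts), given to 1 decimal, with one scaling factor a library; how it was set is not stated. Columns were matched to samples by name. The column used as 5-day replicate 2 names no carcinoma cells; it was assigned by its replicate number and day, since every other sample has a column of its own. Low values were whole multiples of 0.481 to 1.66 units, the worth of 1 read, and 99.98% to 100.0% of the values of a library were whole within 0.051 units, so reads were recovered by division. Their number limits the precision of low genes, and PCR copies among the reads cannot be told from separate molecules.

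Differences were tested with limma 3.58.1 under R 4.3.3 (a two-sided moderated test with a trended prior, on log2(value + 1)), fitting the 3 groups together, and Benjamini-Hochberg adjustment over 10639 genes that reached 5 units in 3 or more libraries; fold changes understate those of low genes. Recovered reads were tested with edgeR 4.0.16 by quasi-likelihood after TMM scaling, and with DESeq2 1.42.0, as alternatives. The limma fit was also repeated without the filter or with a mean of 20 required, at pseudocounts of 0.5 and 5, after rescaling by TMM or median of ratios, on just the groups compared, with the replicate number as a block, and with each library left out. The members and lists were chosen with earlier results of these data known. Named are all members and, per list and comparison, up to 4 called genes by adjusted p, of which the text gives a selection made after their values were seen. Some further list genes, called or not, were also named after their values were seen. The fitting steps were tested on simulated reads. Gene positions are from GENCODE M21 and promoters from RefSeq, both on GRCm38, with 10 of 10 members matched by symbol.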

Additional observations from a re-analysis of the deposited data

Results flagged for a closer look

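The direct contrast of 5-day with 3-day co-culture passed for 8 of the 10 genes. Both changes against monoculture use the same 5-day monoculture, so their difference is this contrast. Days with carcinoma cells and days in culture cannot be told apart in it. On the log2 scale that difference was -3.80 for Gdf15, -1.79 for Asns, -1.68 for Atf3, -1.49 for Trib3, -1.29 for Ddit3, -1.28 for Chac1, -0.91 for Atf5 and -0.59 for Atf4. The limma adjusted p ran from 5.0e-07 for Gdf15 to 0.043 for Atf4, and every 5-day library was below every 3-day library for each of these genes. Of all tested genes 3.71% were called lower and 12.9% were lower without overlap. The lack of overlap was read from the values that gave the calls, so it is no separate evidence. Groups of 3 libraries are too small for a search for single outlying libraries.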

How the results depend on the processing

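Over 19 alternatives for each of 10 genes in 3 comparisons, 541 of the log2 fold changes kept their direction and their side of the threshold, 23 lost the call, 5 gained it and 1 changed sign. Calls higher at 3 days against monoculture numbered 7 to 8 (8 as reported), calls higher and lower at 5 days against monoculture 2 to 4 (3) and 2 to 3 (3), and calls lower between the days 7 to 8 (8). The 1 call lower at 3 days, Atf5, became 0 to 2 calls when libraries were left out in turn. With the replicate number as a block there were 2, Atf5 and Ddit4, and the block changed no other call on a member. The shared numbers need not pair the libraries: the correlation of deviations within the 9 same-numbered pairs ran from -0.11 to 0.23, and 2 of 9 libraries correlated best with their own number. The sign change was that of Ddit4 between 5 and 3 days, from -0.35 to 0.0017 when libraries were left out in turn. Without 5-day replicate 2, whose column names no carcinoma cells, 8 members were higher and 1 lower at 3 days, 2 higher and 3 lower at 5 days, and 7 lower between the days. The same alternatives applied to the lists were chosen after seeing the data; 55 calls on named list genes were lost and 892 results kept. Rescaling moved the median of all genes by under 0.1 on the log2 scale. Few reads stood behind Atf3, with 58 to 171 a group, and behind Gdf15 at 5 days, with 90.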

Other observations

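The 10 genes themselves were left out of a search for tested genes whose log2 levels resembled their mean standardised level over the 9 libraries. Those most alike were Pgpep1l, 1700020I14Rik, Abcc1, Extl1, Chka and Nudt22, with Pearson correlations between 0.96 and 0.98, given as a description. Abcc1, which encodes an exporter of glutathione conjugates, averaged 226.8 ± 33.5 at 5 days of co-culture, 623.1 ± 112.8 at 3 days and 195.0 ± 25.3 in monoculture (SD, n = 3). Chka, the choline kinase alpha gene, averaged 35.8 ± 3.1, 68.1 ± 8.3 and 37.8 ± 4.1 in the same order, and Nudt22 averaged 60.0 ± 7.3, 111.5 ± 15.9 and 57.7 ± 5.5. In all of these the 3-day group had the highest mean. The choice by likeness to the 10 genes favoured that, so it is no separate observation. Pgpep1l and Extl1 averaged 10.9 and 12.9 at 3 days and under 5 in the other groups, so they were tested only because of the 3-day libraries.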
